A study of Mus musculus with 20 samples.

Results

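The DNA double-strand break repair genes are a named list of 38 genes, matched by gene symbol among the 55421 genes of a count table from mouse liver. All 38 were found and all 38 had the 10 or more reads in total that were needed for testing, as had 22867 genes of the table. RNA of 20 livers was sequenced as poly(A)-selected bulk RNA, in 4 groups of 5 independent mice. The mice were wildtype C57BL/6, labelled female, and were injected at 6 months of age with an AAV8 vector that carried a guide RNA and Staphylococcus aureus Cas9, the latter driven by the Tbg promoter. The HIRA groups received sgRNA-HIRA, directed against the gene of the histone chaperone HIRA, and the Rosa26 groups received sgRNA-Rosa26, directed against a locus used as a neutral target. Livers were harvested 3 weeks or 6 months after injection. Cas9 and a guide that cuts DNA were thus present in all 4 groups, each arm rests on 1 guide, and no group without Cas9 was analysed here. The Tbg promoter is active in hepatocytes, so the other cells of the liver were not targeted although their RNA is in the libraries.

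A double-strand break is first sensed by the MRE11 complex and by the kinase ATM, which marks the surrounding chromatin so that MDC1 and the ubiquitin ligases RNF8 and RNF168 assemble there. The mark recruits 53BP1 with RIF1 and shieldin, which protect the ends and favour their direct rejoining by Ku, DNA-PK and DNA ligase IV, or the ends are resected by CtIP and EXO1 and repaired by homologous recombination with BRCA1, PALB2 and BRCA2. Homologous recombination uses the sister chromatid and is therefore a pathway of S and G2 phase, while hepatocytes of the adult liver are mostly quiescent. Breaks made by Cas9 are repaired by these same pathways.

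Depth was similar across the libraries, with 19916430 to 24079736 counts in total, of which the 10 most abundant genes took 17.4 to 25.1%. Hira itself, the targeted gene, had 4.15 to 5.95 CPM (counts scaled to the TMM-adjusted library size) in HIRA livers of 3 weeks and 6.04 to 8.54 CPM in Rosa26 livers, a difference of -0.48 ± 0.14 in log2 units (SE; edgeR adjusted p 0.197). At 6 months the difference for Hira was -0.10 ± 0.14 (edgeR adjusted p 0.794), and small insertions or deletions at a cut site need not lower a transcript. Xist was counted 9 times in the library labelled HIRA 6 months replicate 5 and 6286 to 8436 times in the other 19 libraries, and 4 Y chromosome genes summed to 2041 counts against 0 to 13. This library goes against its label as female, was kept, and values without it are given where they change a call. All 10 hepatocyte markers that were listed (among them Alb, Apoa1 and Ttr) were present in every library, with a summed level of 89065 to 171143 CPM.

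The sequences before a RefSeq start site of the 3 repair genes that the results turn on are shown first, because 2 of these genes share their start region with a neighbour on the opposite strand. Shld2 and Glud1, the gene of glutamate dehydrogenase, start 234 bases apart, and Lig4 and Abhd13 start 21 bases apart. Of the 37 members with a position in the annotation, 13 (35.1%) had a protein-coding neighbour that starts on the opposite strand between 1000 bases upstream and 300 bases inside, against 1793 of 15736 (11.4%) of all tested protein-coding genes. The stretches are from the RefSeq promoter table (GRCm38.p6), lie outside annotated exons, and run 5′ to 3′ on the strand of the gene, with each match to GGGCGG (the GC box, either strand) in capitals. They are chr14:34310518-34310726 (minus strand, the 209 bases between the start sites of Shld2 and Glud1 in that table), chr4:148130699-148130914 (plus strand, before a Mad2l2 start site inside the gene as annotated below) and chr8:9976312-9976561 (minus strand, before a Lig4 start site that is also inside the gene), with chr8:9977687-9977706 (minus strand, the 20 bases between the annotated starts of Lig4 and Abhd13).
Shld2: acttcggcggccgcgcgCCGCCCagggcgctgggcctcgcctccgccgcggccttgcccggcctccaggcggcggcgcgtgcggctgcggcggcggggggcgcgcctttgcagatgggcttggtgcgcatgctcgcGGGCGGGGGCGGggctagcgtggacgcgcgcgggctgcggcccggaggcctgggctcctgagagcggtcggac
Mad2l2: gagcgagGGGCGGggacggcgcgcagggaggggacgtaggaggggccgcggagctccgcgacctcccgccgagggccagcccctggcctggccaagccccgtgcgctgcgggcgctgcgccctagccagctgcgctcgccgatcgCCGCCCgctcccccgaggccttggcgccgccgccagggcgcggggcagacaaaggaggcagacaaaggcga
Lig4: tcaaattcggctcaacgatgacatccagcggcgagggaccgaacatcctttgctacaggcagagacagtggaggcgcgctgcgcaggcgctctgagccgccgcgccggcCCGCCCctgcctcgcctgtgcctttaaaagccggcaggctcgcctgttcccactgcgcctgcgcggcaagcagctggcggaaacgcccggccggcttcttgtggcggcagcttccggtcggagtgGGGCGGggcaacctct
Lig4 and Abhd13: ttcatgctacggtagcccgt

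The first 3 stretches were 81.8% (Shld2), 78.7% (Mad2l2) and 68.4% (Lig4) G and C, and held 3, 2 and 2 GC boxes. The window of 250 bases at the start that Lig4 shares with Abhd13 was 70% G and C with 0 GC boxes, and a second window of Mad2l2 was 57.6% G and C with 1 GC box. Promoter windows of 250 bases were found in the table for 30 of the 38 members, 34 windows in all, and not for Rad50, Nbn, Rif1, Rbbp8, Exo1, Wrn, Prkdc and Poll. A GC box was in 20 of the 34 windows (58.8%), against 32.7% of the 32851 windows of the table. It was added to the search after the windows had been read. The E2F motif, searched as TTTCCCGC or TTTGGCGC on either strand, is a sequence that factors of the G1 to S transition bind, and it was in 4 windows (11.8%), of Brca2, Chek2, Mdc1 and Xrcc6, against 1.3% of all windows. Its surroundings outside exons are given for the first 3, at chr5:150522437-150522476, chr5:110839815-110839854 and chr17:35841466-35841497 (plus strand), with the motif in capitals.
Brca2: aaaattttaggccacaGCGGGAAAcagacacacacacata
Chek2: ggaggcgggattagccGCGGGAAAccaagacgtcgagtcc
Mdc1: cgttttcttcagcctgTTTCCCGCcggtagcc

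The E-box CACGTG, the site of the clock factors CLOCK and BMAL1 among others, was in 4 windows (11.8%; Lig3, Parp1, Parp2 and Xrcc5) against 6.02% of all windows. The D-box, searched as TTATGTAA or TTACGTAA, was in 0 windows of members against 0.931% of all windows. A match is a run of letters and does not show binding, and several windows overlap exons or the window of another transcript of the gene.

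Levels between genes were compared as CPM per kilobase of annotated exon, over 20 livers and for 37 members, since no exon length was found for Shld3. The members ran from the 5.14 to the 84.9 percentile of the tested genes, and 19 of the 37 were above the median tested gene. Mad2l2, which encodes the REV7 subunit of shieldin and of the translesion polymerase zeta, was first at 8.90 ± 2.17 CPM per kb (SD over 20 livers, the 84.9 percentile of tested genes). It was followed by Parp1, which encodes the main poly(ADP-ribose) polymerase, at 7.87 ± 0.762 CPM per kb. Next came Xrcc5, the gene of the Ku80 subunit, at 7.25 ± 1.16, and Nbn, the NBS1 subunit of the MRE11 complex, at 5.19 ± 0.712. These 4 levels and that of Shld2, 5.15 ± 1.72 CPM per kb, lay within each other's ranges for most neighbours in the order.

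Among the lowest levels, Brca1 was at 0.248 ± 0.0796 CPM per kb, Atm at 0.187 ± 0.0444, Palb2, the partner of BRCA2, at 0.133 ± 0.0427 and Chek1, the replication checkpoint kinase, at 0.129 ± 0.0474. The lowest were Exo1, a resection exonuclease, at 0.0245 ± 0.0171 CPM per kb (1 to 16 counts per library), and Polq, the polymerase of theta-mediated end joining, at 0.0166 ± 0.00875 (1 to 7 counts). Both were under the 8.0 percentile of the tested genes, so their values rest on few reads.

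**Figure D1:**
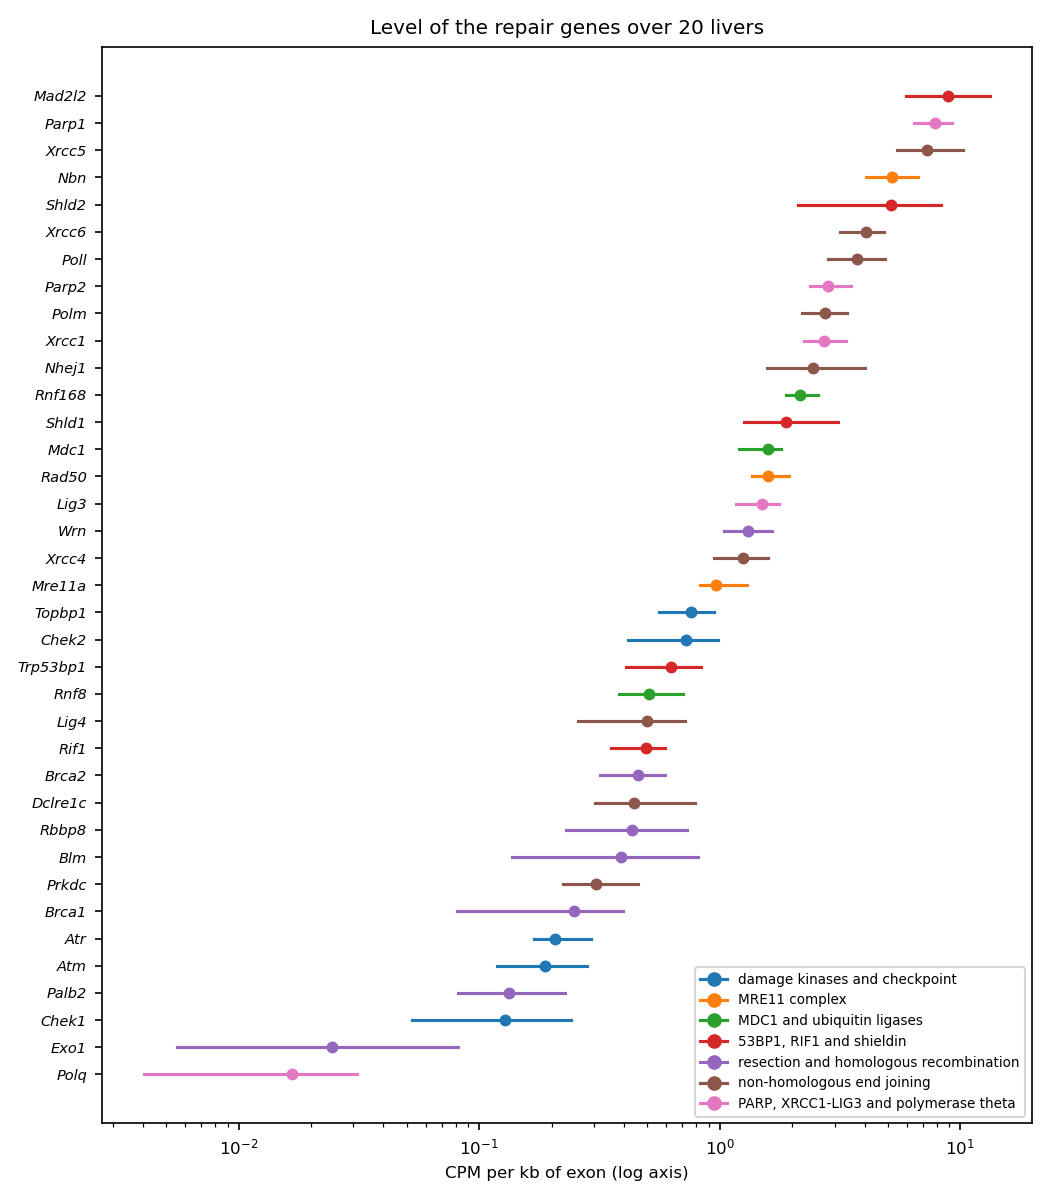
Mean level of 37 repair genes in CPM per kilobase of exon (log axis) with lines from the lowest to the highest of 20 livers, coloured by role. Means run from 0.0166 for Polq to 8.90 for Mad2l2, and the lines are longest for Exo1, Polq, Blm, Brca1, Chek1 and Shld2.

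The members differed in how steady they were between livers. The highest library exceeded the lowest by 1.36 times for Rnf168, 1.43 times for Rad50 and 1.44 times for Parp1 on the CPM scale. The ratio was 14.7 for Exo1, 7.70 for Polq, 5.94 for Blm, the gene of the Bloom helicase, 4.88 for Brca1 and 4.58 for Chek1. Of the 5 members with the highest level per kilobase, Shld2 had the widest range, from 12.1 to 47.7 CPM (3.95 times).

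The comparison at 3 weeks asks how repair transcripts differ soon after the HIRA guide, against a guide that cuts elsewhere. No member passed the test (0 of 38, edgeR adjusted p under 0.05), where 45 of 22867 genes passed (0.197%). Without 1 library the count over all genes ran from 4 to 103. Unadjusted p-values were under 0.05 for 3 members (7.89%), Mad2l2, Rnf8 and Nhej1, against 8.87% of all genes, and all 3 were lower in the HIRA group, as were 4.5% of all genes. The median log2 fold change over the 38 members was -0.06, beside -0.01 over all genes, and the 95% interval stayed within 2-fold in either direction for 35 members. A lower value in bulk RNA can come from fewer cells of a type or from less RNA per cell, which cannot be told apart here.

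By role, the estimates at 3 weeks were small. The damage kinases and checkpoint genes, Atm, Atr, Topbp1, Chek1 and Chek2, had log2 fold changes between -0.18 and 0.27, and the MRE11 complex genes, Mre11a, Rad50 and Nbn, between -0.11 and 0.13. Resection and recombination genes ran from -0.16 (Brca2) to 0.58 (Brca1, ± 0.29 SE, edgeR adjusted p 0.595). The genes of end joining ran from -0.46 (Nhej1) to 0.16 (Lig4), and Parp1, Parp2, Xrcc1, Lig3 and Polq were all below 0, from -0.19 to -0.08.

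The lowest p at 3 weeks was that of Mad2l2 (ENSMUSG00000029003.11, chromosome 4, 148130384 to 148145699, plus strand). Its transcript stood at 34.7, 34.7, 31.6, 27.4 and 25.5 CPM in replicates 1 to 5 of the Rosa26 group and at 19.2, 20.4, 21.5, 17.4 and 21.4 CPM in those of the HIRA group. All 5 HIRA livers were below all 5 Rosa26 livers, which held for 1 of 38 members (2.63%) and for 2.69% of all genes. The log2 fold change was -0.62 ± 0.14 (SE, 95% interval -0.92 to -0.33), 0.649 of the Rosa26 level, with an edgeR adjusted p of 0.0764. The adjusted p was under 0.05 with DESeq2 (0.00688), in an edgeR fit of the 10 libraries of 3 weeks alone (0.00963), and without Rosa26 6 months replicate 3 (0.0336) or HIRA 6 months replicate 1 (0.0345). The call of Mad2l2 at 3 weeks thus depends on the test and on the libraries in the fit.

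Among the other members, Rnf8, the ubiquitin ligase that is recruited by MDC1, had 8.26, 6.64, 6.42, 6.40 and 6.05 CPM in the Rosa26 group and 6.27, 5.90, 5.13, 4.73 and 5.77 CPM in the HIRA group. The groups overlapped through a single pair of libraries, and the log2 fold change was -0.28 ± 0.12 (adjusted p 0.495, edgeR). Nhej1, the gene of the end joining factor XLF, had 4.31, 2.79, 2.77, 2.71 and 2.56 CPM against 2.12, 2.72, 2.42, 2.01 and 1.76 CPM in the HIRA group, a log2 fold change of -0.46 ± 0.20 (adjusted p 0.519, edgeR). Its highest value, in replicate 1 of the Rosa26 group, stood apart from the other 4.

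Mad2l2 was also the member with the lowest p when the guide effect was averaged over both times, and there it passed the test. It was lower in the HIRA arm by a log2 fold change of -0.37 ± 0.10 (SE, 95% interval -0.58 to -0.16, edgeR adjusted p 0.0479), the 1 called of 38 members, where 651 genes were called in all (2.85%) and 1.37% were called lower. At 6 months alone Mad2l2 had 20.4, 25.6, 15.6, 26.6 and 22.6 CPM in the Rosa26 group and 27.3, 21.7, 18.1, 16.6 and 18.2 CPM in the HIRA group. These overlapped widely, and the log2 fold change at 6 months was -0.12 ± 0.14 (edgeR adjusted p 0.757). The averaged call stood close to the threshold: over the 20 fits that left out 1 library each, the estimate was -0.44 to -0.33 and the adjusted p was under 0.05 in 4, with 0.0127 without Rosa26 6 months replicate 3, 0.104 without Rosa26 6 months replicate 4 and 0.0599 when leaving out the library labelled HIRA 6 months replicate 5.

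**Figure D2:**
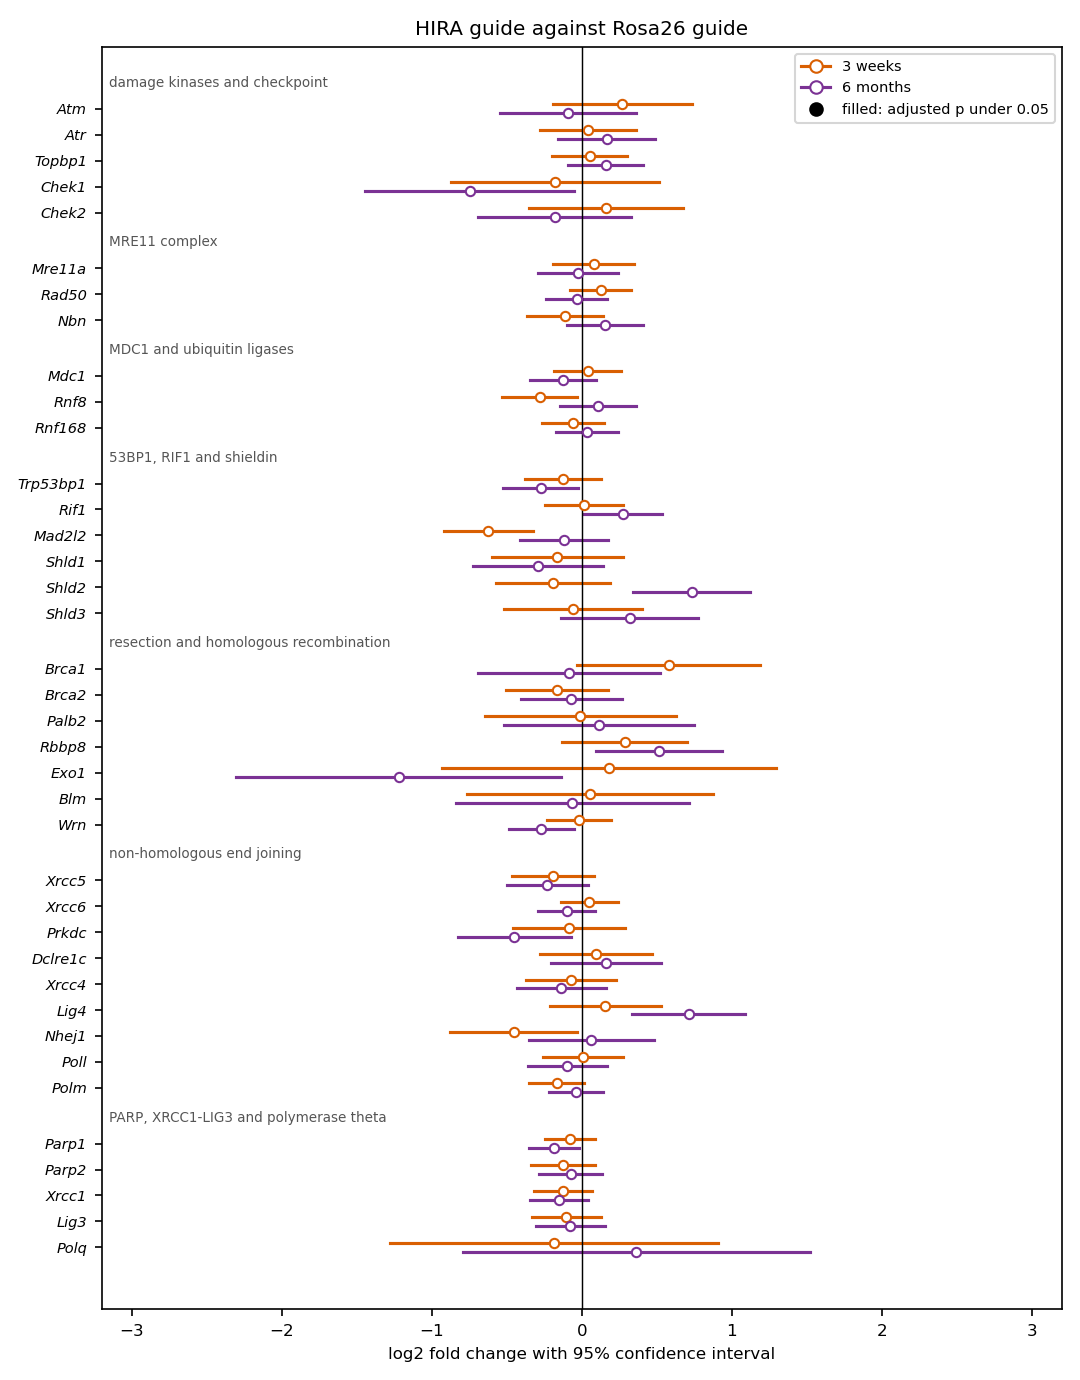
Log2 fold change of each of the 38 repair genes, HIRA guide against Rosa26 guide, at 3 weeks and at 6 months, with 95% confidence intervals and the genes grouped by role. No point is filled (0 members with an adjusted p under 0.05 at either time), Mad2l2 has the lowest estimate at 3 weeks (-0.62), and Shld2 (0.73) and Lig4 (0.71) have the highest at 6 months.

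At 6 months the comparison asks the same long after injection. Again 0 of 38 members passed the edgeR test, where 299 genes passed (1.31%), and the median log2 fold change over the members was -0.07 beside 0.03 over all genes. Without 1 library the count over all genes ran from 49 to 395. With only the libraries of 6 months it was 0. Unadjusted p-values were under 0.05 for 10 members (26.3%) against 15.5% of all genes, 4 of them higher (8.68% of all genes) and 6 lower (6.85% of all genes) in the HIRA group. The groups did not overlap for 3 members, Lig4, Wrn and Exo1 (7.89%), and for 3.15% of all genes. The 4 higher members were Lig4, Shld2, Rbbp8 and Rif1, and the 6 lower members were Wrn, Prkdc, Parp1, Exo1, Trp53bp1 and Chek1.

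Lig4 (ENSMUSG00000049717.9, chromosome 8, 9969049 to 9977686, minus strand) encodes DNA ligase IV, which seals the ends in non-homologous end joining. It had 1.71, 2.14, 2.11, 1.34 and 1.88 CPM in the Rosa26 livers of 6 months and 3.01, 2.55, 3.61, 2.74 and 3.15 CPM in the HIRA livers. Every HIRA value was above every Rosa26 value, with a log2 fold change of 0.71 ± 0.18 (SE, 95% interval 0.34 to 1.09), 1.64-fold, and an edgeR adjusted p of 0.0536. At 3 weeks Lig4 had 2.03, 3.04, 2.50, 2.84 and 2.56 CPM in the Rosa26 group and 2.12, 3.75, 3.44, 2.41 and 2.77 CPM in the HIRA group, which overlapped (0.16 ± 0.18, edgeR adjusted p 0.889). Its neighbour Abhd13, which starts 21 bases away on the other strand, had a log2 fold change of 0.21 ± 0.11 at 6 months (edgeR adjusted p 0.351). Lig4 passed at 6 months with DESeq2 (adjusted p 0.00957), with a minimum of 1 CPM in 5 libraries (edgeR adjusted p 0.031) and with the replicate number as a block (edgeR adjusted p 0.0403). It also passed without HIRA 3 weeks replicate 1 (edgeR adjusted p 0.0468), and over the fits without 1 library its adjusted p reached 0.158.

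Shld2 (ENSMUSG00000041471.9, chromosome 14, 34237033 to 34310493, minus strand) encodes the DNA-binding subunit of shieldin, the complex that keeps broken ends from resection. The Rosa26 livers of 6 months had 21.7, 23.6, 14.2, 12.1 and 15.4 CPM of Shld2, and the HIRA livers had 33.3, 33.3, 31.2, 22.9 and 23.5 CPM. HIRA values were mostly the higher, with an overlap of 2 HIRA livers with 1 Rosa26 liver. The log2 fold change was 0.73 ± 0.19 (SE, 95% interval 0.34 to 1.12), 1.66-fold, with an edgeR adjusted p of 0.0545. With DESeq2 the adjusted p was 0.0109, leaving out the library labelled HIRA 6 months replicate 5 gave 0.80 (edgeR adjusted p 0.0377), and leaving out Rosa26 6 months replicate 4 gave 0.63 (edgeR adjusted p 0.165). The adjusted p was also under 0.05 without Rosa26 6 months replicate 2 (0.0351) and without HIRA 6 months replicate 4 (0.0396). Glud1, which starts 234 bases from Shld2 on the other strand, had a log2 fold change of -0.12 ± 0.11 (adjusted p 0.641, edgeR).

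The other subunits of the end protection branch at 6 months lay on both sides of 0. Rif1, the 53BP1 effector, had a log2 fold change of 0.27 ± 0.13 (adjusted p 0.29, edgeR) and Shld3, the subunit that joins shieldin to REV7, one of 0.32 ± 0.22 (0.528 in edgeR). Shld1 had -0.29 ± 0.21 (edgeR adjusted p 0.545), and Trp53bp1, the gene of 53BP1, had -0.27 ± 0.12 (edgeR adjusted p 0.273). Reads of Trp53bp1 may be shared with Tubgcp4, which overlaps it on the opposite strand over 15.0% of its exon bases and held 75.7% as many counts, since whether the counting used strand is not stated.

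In resection and recombination, Rbbp8, the gene of the resection factor CtIP, had 3.97, 4.10, 5.42, 2.87 and 4.68 CPM in the Rosa26 livers of 6 months and 6.18, 4.96, 9.17, 5.48 and 4.27 CPM in the HIRA livers. The 3 weeks values were 5.22, 4.19, 6.47, 5.86 and 4.00 CPM (Rosa26) and 7.33, 4.78, 6.58, 5.74 and 6.96 CPM (HIRA). Both pairs of groups overlapped, and the HIRA mean was the higher at both times. Rbbp8 had log2 fold changes of 0.28 ± 0.20 at 3 weeks, 0.52 ± 0.20 at 6 months and 0.40 ± 0.14 on average (edgeR adjusted p 0.762, 0.215 and 0.142).

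Wrn, the gene of the Werner helicase and exonuclease, had 10.6, 11.5, 10.9, 12.5 and 10.1 CPM in the Rosa26 livers of 6 months and 8.13, 9.61, 9.29, 9.14 and 10.0 CPM in the HIRA livers. All HIRA values were lower, the nearest by a small margin, and the log2 fold change was -0.27 ± 0.10 (adjusted p 0.202, edgeR). At 3 weeks Wrn had 10.4, 11.2, 8.04, 10.1 and 9.17 CPM in the Rosa26 group and 7.93, 10.3, 9.82, 9.89 and 10.4 CPM in the HIRA group (-0.02 ± 0.10 on the log2 scale). Exo1 was counted 6, 4, 16, 5 and 4 times in the Rosa26 livers of 6 months and 4, 2, 4, 3 and 2 times in the HIRA livers. Its log2 fold change of -1.22 ± 0.52 (edgeR adjusted p 0.258) rests on these few reads, and was -0.69 in the fit nearest to 0 of those without 1 library. With log2(FPKM + 1) it was 0.02, but the added 1 draws the fold change of so low a gene towards 0. That value is therefore not on the same scale as the others.

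Other genes of end joining and of the checkpoint did not pass at 6 months either. Prkdc, the gene of the catalytic subunit of DNA-PK, had 4.55 CPM on average in the Rosa26 livers and 3.34 ± 0.470 CPM in the HIRA livers (SD, n = 5), a log2 fold change of -0.45 ± 0.18 (adjusted p 0.229, edgeR). Chek1 had -0.75 ± 0.33 (edgeR adjusted p 0.28). Parp1 had 46.3, 45.9, 41.2, 49.1 and 46.5 CPM in the Rosa26 livers and 40.6, 42.4, 39.9, 44.1 and 34.0 CPM in the HIRA livers, a log2 fold change of -0.19 ± 0.08 (adjusted p 0.257, edgeR). The Ku genes Xrcc5 and Xrcc6 had -0.23 ± 0.13 and -0.10 ± 0.09 (edgeR adjusted p 0.424 and 0.663).

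**Figure D3:**
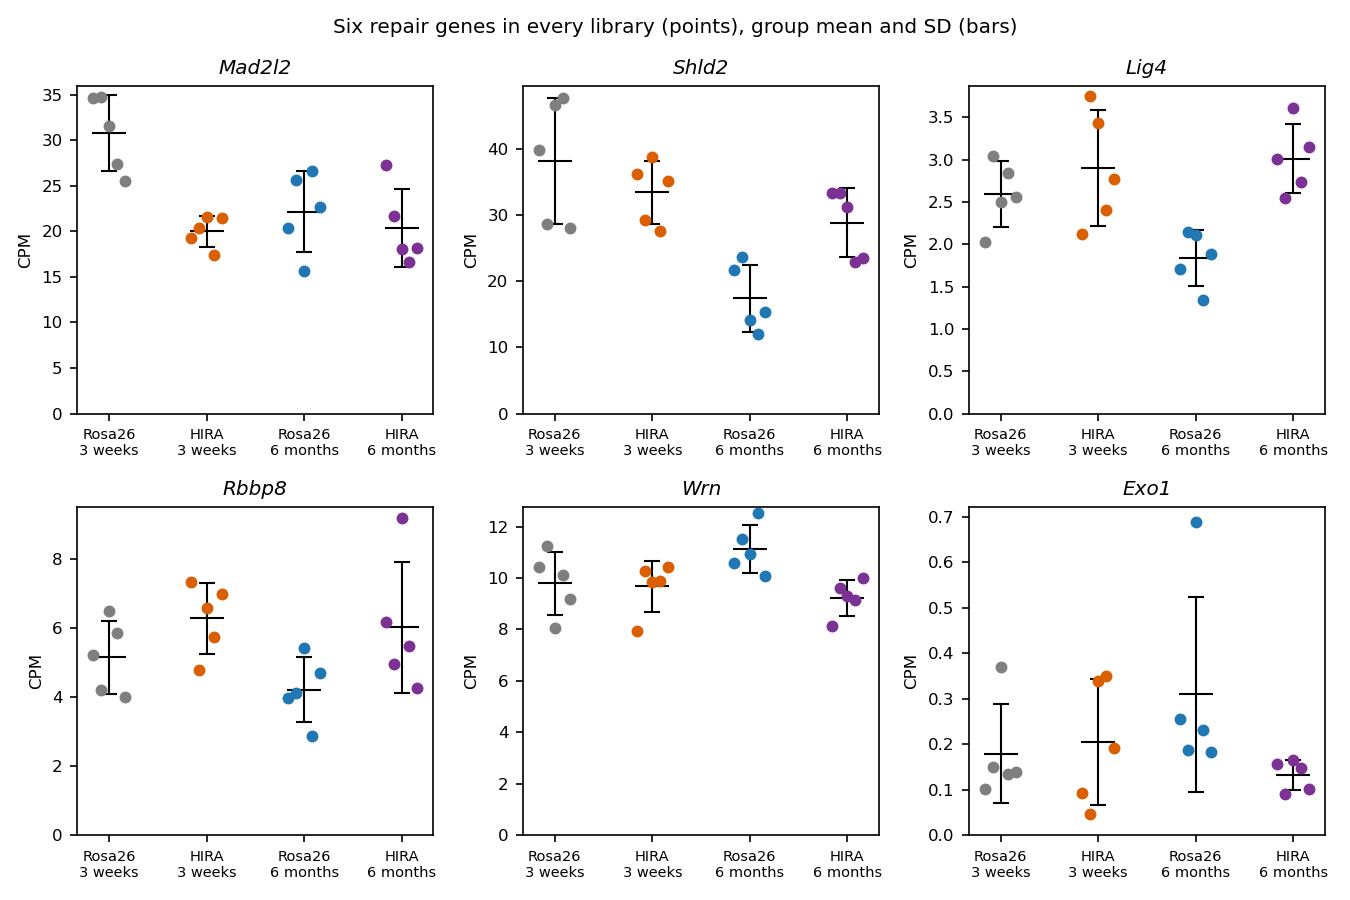
CPM of 6 repair genes in every library (points, 5 per group) with the mean (long bar) and SD (short bars) of the Rosa26 and HIRA groups at 3 weeks and 6 months; each panel starts at 0. The Rosa26 livers of 3 weeks (25.5 to 34.7 CPM) stand above the HIRA livers of 3 weeks for Mad2l2 and overlap both 6 months groups, and the Rosa26 livers of 6 months stand low for Shld2 (12.1 to 23.6 CPM) and Lig4 (1.34 to 2.14 CPM).

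Averaged over both times, 8 members had an unadjusted p under 0.05 (21.1%, against 16.6% of all genes). These were Mad2l2, Parp1, Trp53bp1, Xrcc5, Xrcc1 and Prkdc, which were lower (7.94% of all genes), and Lig4 and Rbbp8, which were higher (8.62% of all genes). Lig4 had an averaged log2 fold change of 0.44 ± 0.13 (edgeR adjusted p 0.0686; DESeq2 0.0206).

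Whether the guide effect differed between the times was tested directly. It was called for 0 members and for 0 of all genes (0% called, smallest edgeR adjusted p 0.614), and DESeq2 and limma-voom also called 0 genes. At an unadjusted p under 0.05 there were 4 members (10.5%) against 6.62% of all genes (1514), or 3.67% in the direction of the 4. For these 4 the HIRA-minus-Rosa26 difference was the higher at 6 months: Shld2 by 0.92 ± 0.26 on the log2 scale (95% interval 0.38 to 1.47, edgeR adjusted p 0.614), Mad2l2 by 0.50 ± 0.20 (0.692), Lig4 by 0.56 ± 0.25 (0.746) and Rnf8 by 0.39 ± 0.17 (0.729). The differences in effect between the times described above therefore did not pass the test of the difference.

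The control arm shows how the repair genes differed between the times without the guide against Hira. The times are different mice, all injected at 6 months of age. Time after injection therefore cannot be told apart from age at harvest or from the harvest itself. Shld2 fell between 3 weeks and 6 months in the Rosa26 arm, the 1 called of 38 members, where 74 of all genes were called (0.324%) and 0.179% were called lower. Without 1 library the count over all genes ran from 1 (Rosa26 3 weeks replicate 1 left out) to 213 (the library labelled HIRA 6 months replicate 5 left out). Its 3 weeks values were 39.8, 28.6, 46.7, 47.7 and 28.0 CPM in the Rosa26 livers, all above the 12.1 to 23.6 CPM of the 6 months livers. The log2 fold change was -1.13 ± 0.19 (SE, 95% interval -1.52 to -0.75), 0.455 of the 3 weeks level, with an edgeR adjusted p of 0.0195 and a DESeq2 adjusted p of 1.86e-05. In the HIRA arm Shld2 had 36.2, 29.3, 38.9, 27.7 and 35.2 CPM at 3 weeks, which overlapped the 22.9 to 33.3 CPM of 6 months (-0.21 ± 0.18, 95% interval -0.59 to 0.17).

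Shld2 passed in the Rosa26 arm under each of the 8 other normalizations, filters, tests and sets of samples tried and in 17 of the 20 fits without 1 library. The exceptions were Rosa26 3 weeks replicate 1 (edgeR adjusted p 0.05004), Rosa26 3 weeks replicate 4 (0.0682) and Rosa26 6 months replicate 4 (0.0704), with estimates of -1.12, -1.04 and -1.03. For Glud1, across the shared start region printed above, the estimate over time in the Rosa26 arm was -0.06 ± 0.11 on the log2 scale (adjusted p 0.863, edgeR). The Rosa26 livers of 6 months enter both this comparison and that of the guides at 6 months, and the Rosa26 livers of 3 weeks enter both this one and that of the guides at 3 weeks, so the estimates of a gene in them are not independent.

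Markers of sinusoidal endothelium, 8 genes among them Stab2 and Lyve1, were examined beside Shld2, and none passed the test. Over time in the Rosa26 arm 0 of the 8 were called and 4 had an unadjusted p under 0.05, with a median log2 fold change of -0.39. Their summed level was 273 to 364 CPM in the Rosa26 livers of 3 weeks and 172 to 318 CPM in those of 6 months. In the HIRA arm it was 286 to 339 and 211 to 356 CPM, with a median log2 fold change over time of -0.09 and an unadjusted p under 0.05 for 0 of 8. Between the guides at 6 months the median was 0.33, with 4 of 8 at an unadjusted p under 0.05 and 0 called, and at 3 weeks it was 0.14, where Shld2 had -0.19. Over time in the Rosa26 arm the medians of the other lists were -0.21 (hepatocyte), -0.07 (bile duct), 0.11 (stellate cell and fibroblast), 0.29 (Kupffer cell and macrophage) and 0.72 (lymphocyte). For the guides at 6 months, these lists had medians of 0.18 (hepatocyte), 0.18 (bile duct), 0.50 (stellate cell and fibroblast), -0.12 (Kupffer cell and macrophage) and 0.45 (lymphocyte). All 8 endothelial markers were detected in every library, and the part of these cell types in the values of Shld2 was not tested.

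Unadjusted p-values under 0.05 in the Rosa26 arm were found for 5 members (13.2%) against 12.8% of all genes, with 6.38% in each direction. Blm was higher at 6 months. Beside Shld2, lower at 6 months were Mad2l2 (-0.47 ± 0.14, edgeR adjusted p 0.138), Lig4 (-0.50 ± 0.18, edgeR adjusted p 0.233) and Rnf8 (-0.29 ± 0.12, edgeR adjusted p 0.305). The 6 months values of Rnf8 were 5.51, 5.83, 4.47, 5.84 and 6.01 CPM in the Rosa26 livers, all below those of 3 weeks, and 6.06, 5.60, 6.30, 5.09 and 6.76 CPM in the HIRA livers. Groups did not overlap for 2 members, Shld2 and Rnf8 (5.26%), and for 3.5% of all genes. The median log2 fold change over the 38 members was 0.10, beside 0.00 over all genes.

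Blm, the gene of the Bloom helicase, which dissolves recombination intermediates, had a higher mean at 6 months than at 3 weeks in both arms, without passing the test. In Rosa26 livers it had 1.57, 2.70, 1.20, 2.34 and 3.35 CPM at 3 weeks and 3.07, 3.17, 5.98, 7.13 and 3.85 CPM at 6 months. In HIRA livers it had 2.40, 2.76, 1.45, 2.54 and 2.43 CPM at 3 weeks and 1.33, 7.01, 2.03, 6.65 and 5.29 CPM at 6 months. The 6 months groups were wide, from 1.33 to 7.13 CPM, and overlapped those of 3 weeks in both arms. The log2 fold changes over time were 1.06 ± 0.39 (edgeR adjusted p 0.233) and 0.94 ± 0.39 (edgeR adjusted p 0.481).

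In the HIRA arm 0 members were called over time, where 15 genes were (0.0656%), and 2 members had an unadjusted p under 0.05 (5.26%) against 8.95% of all genes. Both were higher at 6 months, as were 5.58% of all genes. They were Blm and Polm, the gene of polymerase mu, which fills gaps in end joining. Polm had 9.03, 10.1, 8.61, 9.02 and 8.01 CPM at 3 weeks and 9.86, 10.5, 10.8, 10.6 and 10.4 CPM at 6 months in HIRA livers (0.22 ± 0.09, edgeR adjusted p 0.464). Rosa26 livers had 10.4, 9.73, 10.1, 9.11 and 10.9 CPM of Polm at 3 weeks and 10.1, 9.97, 9.94, 12.3 and 11.3 CPM at 6 months, so the HIRA livers of 3 weeks held the 4 lowest values and 1 library of that group reached the others. Nhej1 had 3.03, 2.66, 2.67, 2.87 and 2.71 CPM (Rosa26) and 3.32, 2.00, 2.49, 2.30 and 4.47 CPM (HIRA) at 6 months, and its log2 fold change over time in the HIRA arm was 0.40 ± 0.20 (edgeR adjusted p 0.585).

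**Figure D4:**
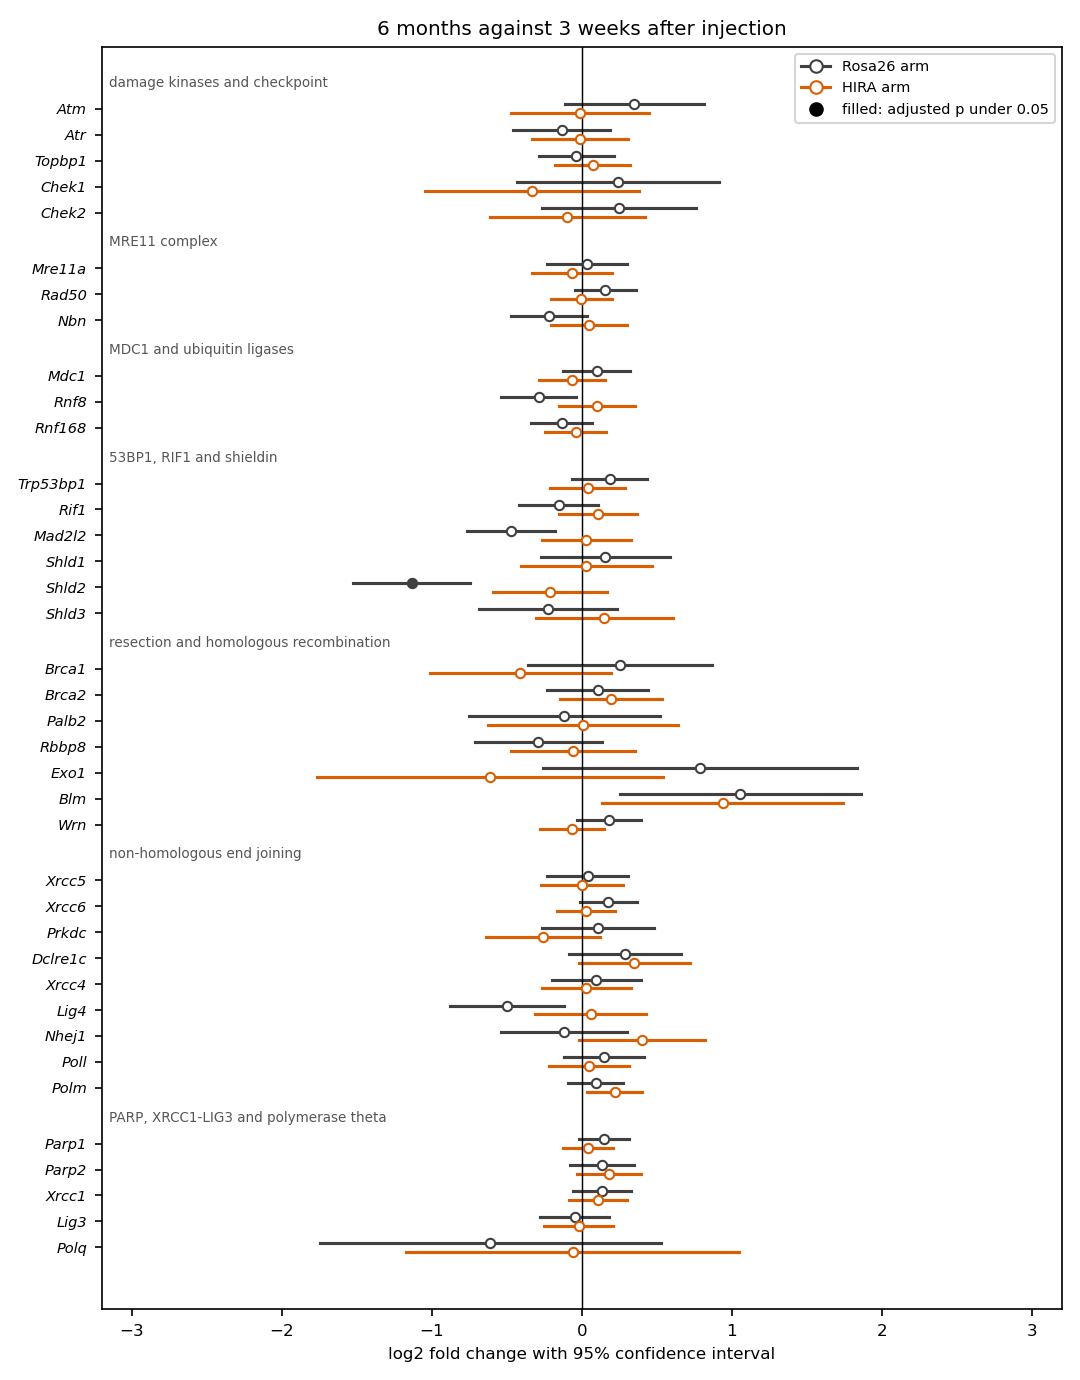
Log2 fold change of each of the 38 repair genes from 3 weeks to 6 months after injection, in the Rosa26 arm and in the HIRA arm, with 95% confidence intervals and the genes grouped by role; a filled point passed the test (adjusted p under 0.05). Shld2 in the Rosa26 arm (-1.13) is the 1 filled point, and Blm lies to the right of 0 in both arms (1.06 and 0.94).

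Targets of p53, which is activated by DNA breaks, had a median log2 fold change over time of -0.65 in the Rosa26 arm and of -0.64 in the HIRA arm over 18 listed genes, beside 0.00 and 0.03 over all genes. Unadjusted p-values were under 0.05 for 14 and 13 of them, against 12.8% and 8.95% of all genes. Of the 18, 4 were called lower over time in the Rosa26 arm and 1 higher (Bbc3, 0.66 ± 0.14, edgeR adjusted p 0.044). Over all genes 0.324% were called in this comparison and 0.179% were called lower. Cdkn1a, whose product p21 blocks the cell cycle, fell by 3.61 ± 0.45 in log2 units, from 41.4 to 121 CPM in the livers of 3 weeks to 3.50 to 9.34 CPM at 6 months (edgeR adjusted p 0.00196). Aen (-1.13), Eda2r (-1.87) and Phlda3 (-1.77) were the others called lower. In the HIRA arm Eda2r was the 1 called over time (-2.22 ± 0.34, edgeR adjusted p 0.00821), where 0.0656% of all genes were called. Cdkn1a had -1.54 ± 0.42 over time in that arm (edgeR adjusted p 0.2). Between the guides Cdkn1a had -1.25 ± 0.40 at 3 weeks and 0.82 ± 0.44 at 6 months (edgeR adjusted p 0.266 and 0.383). Bbc3 was lower in the HIRA group at 6 months (-0.69 ± 0.14, edgeR adjusted p 0.0204) and on average (-0.36), as was Fas on average (-0.38 ± 0.08, edgeR adjusted p 0.0112). The list as a whole leaned the other way. Its median log2 fold change between the guides was 0.12 at 3 weeks, 0.19 at 6 months and 0.18 on average. Over all genes these medians were -0.01, 0.03 and 0.02. Dbp, a clock output gene whose level in liver follows the time of day, had 1.52 to 3.54 CPM in the Rosa26 livers of 3 weeks. In the other groups Dbp had 9.05 to 104 CPM (HIRA, 3 weeks), 18.1 to 95.1 CPM (Rosa26, 6 months) and 3.75 to 115 CPM (HIRA, 6 months). The Rosa26 livers of 3 weeks thus lay below the other groups in Dbp. The labels give no hour of harvest, and the part of the time of day or of p53 activity in the values of Mad2l2 and Shld2 was not tested.

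The relation of repair genes to proliferation within groups was examined because recombination genes are known to be transcribed in cycling cells. A proliferation score was formed per library as the mean over 16 genes of cycling cells, Mki67 and Top2a among them and no repair gene, of log2 CPM centred per gene. A slope on it was then fitted beside the 4 group means. Scores ran from -0.56 to 0.869 and from 0.0466 to 1.12 in the Rosa26 and HIRA livers of 3 weeks, and from -1.01 to 0.747 and from -1.02 to 1.20 in those of 6 months. Replicate 3 had the highest score in 3 of the 4 groups.

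Exo1 was the 1 member called, with a slope of 0.90 ± 0.24 log2 units per unit of score (SE, 95% interval 0.40 to 1.41, edgeR adjusted p 0.0348), where 1062 genes were called in all (4.64%) and 3.98% were called higher. It had 0.101, 0.150, 0.370, 0.135 and 0.140 CPM in the Rosa26 livers of 3 weeks, with the highest value in the library of the highest score. Rosa26 livers of 6 months had 0.256, 0.186, 0.688, 0.232 and 0.183 CPM, again highest in replicate 3. HIRA livers had 0.0922, 0.0469, 0.339, 0.350 and 0.191 CPM at 3 weeks and 0.156, 0.0911, 0.166, 0.147 and 0.102 CPM at 6 months, where the spread was small. Over the fits without 1 library the slope was 0.73 to 1.15, and the edgeR adjusted p rose to 0.268 without Rosa26 6 months replicate 3. It was also above 0.05 without Rosa26 3 weeks replicate 3 (0.0851), HIRA 3 weeks replicate 4 (0.0617), Rosa26 6 months replicate 2 (0.0633) and the library labelled HIRA 6 months replicate 5 (0.0523). With all 20 libraries, Exo1 also missed the threshold with DESeq2 (adjusted p 0.0654), with limma-voom (0.0527) and in edgeR with no filter on low counts (0.0563). With the replicate number as a block the slope was 0.25 (edgeR adjusted p 0.891) and 3 genes were called in all in place of 1062, and 211 were called without Rosa26 6 months replicate 3.

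Unadjusted p-values of the slope were under 0.05 for 8 members (21.1%) against 17.6% of all genes, 5 higher (10.5% of all genes) and 3 lower (7.09% of all genes) with the score. Beside Exo1 the higher were Polq (0.78 ± 0.28, edgeR adjusted p 0.122), Palb2 (0.43 ± 0.16, 0.145 in edgeR), Chek1 (0.39 ± 0.17, 0.247) and Rbbp8 (0.26 ± 0.10, 0.173). The 3 lower were Xrcc1, Shld3 and Mad2l2 (-0.19 ± 0.08, edgeR adjusted p 0.192).

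Xrcc1, the scaffold of single-strand break repair, had 16.3, 15.1, 15.0, 17.6 and 14.8 CPM (Rosa26) and 14.5, 15.1, 13.8, 14.2 and 14.6 CPM (HIRA) at 3 weeks. The 6 months values were 16.4, 18.8, 16.2, 19.5 and 15.7 CPM (Rosa26) and 16.9, 17.1, 13.1, 13.4 and 17.5 CPM (HIRA). Its range was narrow, and its slope was -0.15 ± 0.05 (edgeR adjusted p 0.0704). Shld3 had 1.42, 1.60, 1.71, 1.85 and 1.63 CPM (Rosa26) and 1.66, 1.26, 1.79, 1.27 and 1.91 CPM (HIRA) at 3 weeks. At 6 months it had 1.49, 2.10, 0.903, 1.21 and 1.33 CPM (Rosa26) and 1.72, 1.59, 1.45, 1.42 and 2.59 CPM (HIRA). The slope of Shld3 was -0.33 ± 0.11 (edgeR adjusted p 0.112), and -0.26 (0.345) when leaving out the library labelled HIRA 6 months replicate 5, which had the highest Shld3 value.

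**Figure D5:**
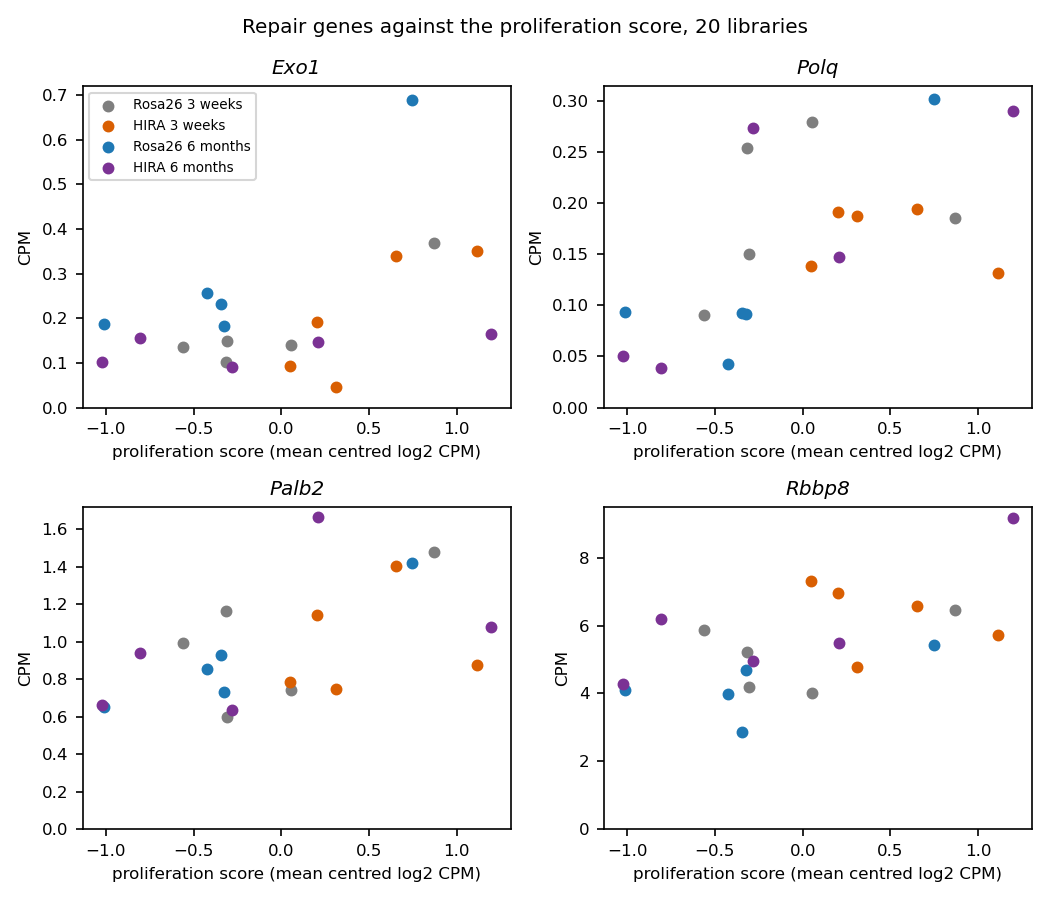
CPM of Exo1, Polq, Palb2 and Rbbp8 against the proliferation score (mean centred log2 CPM of 16 genes) in 20 libraries, coloured by group. The Exo1 value of 0.688 CPM in Rosa26 6 months replicate 3 stands far above the other libraries, and Polq stays between 0.0391 and 0.301 CPM.

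Markers of other cells moved with the score in the fit without the replicate block, in which all calls of this paragraph were made. With the block 3 of all genes were called in place of 1062, so most of these calls depend on leaving it out. Of 8 Kupffer cell and macrophage markers, 4 had a slope above 0 that passed the test (Adgre1 1.22, Cd5l 1.01, Csf1r 0.94 and Cd68 0.84), with summed levels of 324 to 547 (Rosa26) and 305 to 528 CPM (HIRA) at 3 weeks. Their sum was 187 to 1297 CPM in the Rosa26 and 112 to 801 CPM in the HIRA livers of 6 months. Of 10 lymphocyte markers 3 rose with the score (Ptprc 0.87, Cd3g 0.93 and Nkg7 0.86), with sums of 13.7 to 70.5 CPM over all groups, and of 8 stellate cell and fibroblast markers 2 did (Col1a1 1.04 and Col3a1 1.00), with sums of 192 to 806 CPM. Among 10 hepatocyte markers 1 (Cyp2e1, -0.34) fell with the score, and 0 of 8 endothelial markers were called. Among 18 p53 targets 6 rose with the score, and of 16 DNA replication genes 5 did (Mcm2, Mcm3, Mcm4, Mcm5 and Mcm6, with slopes of 0.37 to 0.67). Of the 16 genes of the score itself 15 passed, which follows from how the score was formed and is no result. The part of these other cells in the slope of Exo1 was not tested. In the comparisons of guides and times 0 genes of the cell type, proliferation and DNA replication lists were called at an adjusted p under 0.05.

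A further 64 repair genes outside the list were examined for comparison: 26 of recombination, 16 of end joining and end processing, and 22 of signalling and chromatin. In the 6 comparisons of guides and times 0 of the 64 were called, and their shares at an unadjusted p under 0.05 were 9.38% (guides at 3 weeks), 17.2% (6 months), 17.2% (averaged), 3.12% (change between times), 15.6% (time, Rosa26) and 6.25% (time, HIRA). Over all genes these shares were 8.87%, 15.5%, 16.6%, 6.62%, 12.8% and 8.95%. On the proliferation score, in the fit without the replicate block, those called were all of recombination, and 4 are given here. Rad51ap1, a recombination accessory factor, had a slope of 1.39 ± 0.26 (edgeR adjusted p 0.004). Rmi2, of the BLM dissolvasome, had 1.14 ± 0.32 (edgeR adjusted p 0.0468), and Rpa1, of the single-strand binding complex, had 0.20 ± 0.05 (0.0301 in edgeR). Dna2, a resection nuclease, had -0.27 ± 0.08 (edgeR adjusted p 0.0436).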

How the data were processed

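The 38 members were found by gene symbol in a gene count table of 20 libraries, and groups and replicate numbers were taken from the sample titles. Members, gene lists and tests were chosen with earlier results of these data known. The labels' processing notes name STAR, HTSeq, Cufflinks and mm10 (the GRCm38 assembly), while the methods name HOMER for counting. Libraries were made with a directional poly(A) kit, and whether strand was used in counting is not stated. The counts deposited by the authors are whole reads per gene without normalization, and the deposited FPKM values, which had 629498 blank cells (0 among members), served as an alternative only. Of the identifiers, 54673 (98.7%) matched GENCODE M21.

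Counts were tested with the quasi-likelihood test of edgeR 4.0.16 (R 4.3.3), TMM normalization and Benjamini-Hochberg adjustment over 22867 genes with at least 10 counts in total, all 20 libraries and a mean per group. A gene was called at an adjusted p under 0.05. Adjusted p-values are from this fit unless another tool is named. The slope was tested in the same fit with the proliferation score (prior count 2) added. CPM used TMM library sizes. The promoter tables are from RefSeq and windows of 250 bases were searched on both strands. Alternatives were RLE size factors, no filter, at least 1 CPM in 5 libraries, the replicate number as a block, only the libraries of a comparison, limma-voom (limma 3.58.1), DESeq2 1.42.0, log2(FPKM + 1) with limma, leaving out each library, and the fold threshold of the study (absolute log2 fold change above 1). In simulated counts with a 2-fold change at 3 weeks, given to genes of at least 1 CPM on average, 88 of 100 genes were recovered among 22407 tested. The simulation does not cover members under 1 CPM, such as Exo1 and Polq, or changes under 2-fold. Values of every library are given for members called in any comparison or among the 3 with the smallest p. Dbp, Glud1 and Abhd13 were chosen after their values were seen. Some results for genes outside the 38 are not reported here. Depth is in the report and limits the genes with few counts most. Python 3.11.15, numpy 2.4.6, pandas 2.3.3 and matplotlib 3.10.9 were also used.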

Additional observations from a re-analysis of the deposited data

Results flagged for a closer look

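In 12 of 152 sets of 5 libraries (7.89%), 1 library of a member stood apart from the other 4 of its group by Dixon's criterion, which chance alone meets in about 1 in 20. In log2 CPM, these were Mre11a in HIRA 3 weeks replicate 2 (2.96, the highest), Rnf168 in Rosa26 3 weeks replicate 2 (3.53, the highest) and Nhej1 in Rosa26 3 weeks replicate 1 (2.14, the highest). Exo1 was highest in Rosa26 3 weeks replicate 3 (-1.12) and in Rosa26 6 months replicate 3 (-0.36), the libraries with the highest proliferation score of their groups. Poll, the gene of polymerase lambda, was lowest in HIRA 3 weeks replicate 5 (2.90) and highest in Rosa26 6 months replicate 4 (3.50). Blm was lowest in HIRA 3 weeks replicate 3 (0.63), and Wrn was lowest in HIRA 3 weeks replicate 1 (3.00). The library labelled HIRA 6 months replicate 5, whose sex-linked counts go against its label, held 3 of the 12, with Rad50 highest (3.40), Prkdc highest (2.09) and Brca1 lowest (0.21).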

How the results depend on the processing

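Of 931 alternative values for 34 effects of single members, 872 kept their direction and their side of the threshold, 30 lost and 19 gained a call, and 10 changed direction. Members called at 3 weeks (0) became 1 with DESeq2 and 1 with only the libraries of the comparison (Mad2l2 in both), and 0 to 1 without 1 library. At 6 months (0) they became 1 with no filter on low counts (Shld2), 2 with at least 1 CPM in 5 libraries and 2 with DESeq2 (Lig4 and Shld2), and 0 to 1 without 1 library. For the averaged guide effect (1) they became 2 with at least 1 CPM in 5 libraries and 2 with DESeq2 (Mad2l2 and Lig4), 0 with limma-voom, 0 with log2(FPKM + 1), 0 with the fold threshold of the study, and 0 to 1 without 1 library. Over time in the Rosa26 arm the count (1) changed only without 1 library, to 0 to 1. For the slope on the proliferation score (1) they became 0 with no filter, 0 with limma-voom, 3 with log2(FPKM + 1) (Exo1, Palb2 and Rbbp8), and 0 to 1 without 1 library. With DESeq2 the 1 member called was Xrcc1 in place of Exo1. With at least 1 CPM in 5 libraries the 1 called was also Xrcc1. Exo1, which reached at most 0.688 CPM, was left out by that filter and not tested. The cause of these changes was not tested, except that leaving out genes shortens the list over which p-values are adjusted. Counts for the change of the guide effect and for time in the HIRA arm stayed at 0 in every alternative run.

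The libraries were not treated as paired by replicate number: the labels name no shared batch, and same-numbered libraries had correlated deviations over 0.1 in 14 of 30 pairs (-0.33 to 0.33, median 0.075, against a median of -0.034 for different numbers). The own number was the best match in 22 of 60 comparisons, where 12 would be so by the number of candidates, and not in every one. With the replicate block, members called at 6 months became 1 (Lig4, edgeR adjusted p 0.0403), those of the slope became 0 (Exo1 0.25, edgeR adjusted p 0.891), with 3 genes called in place of 1062, and the other counts of members did not move.

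Estimates that changed direction were Exo1 at 3 weeks (0.18; -0.043 with log2(FPKM + 1), and -0.12 to 0.63 without 1 library, with values below 0 without HIRA 3 weeks replicate 3 and without HIRA 3 weeks replicate 4), Exo1 with log2(FPKM + 1) at 6 months (0.022), for the change between times (0.065) and over time in the HIRA arm (0.080), and Mad2l2 over time in the HIRA arm (0.03; -0.011 with log2(FPKM + 1), and -0.098 to 0.095 without 1 library). The estimates of Exo1 between groups with log2(FPKM + 1) are drawn towards 0 by the added 1. The slope of Shld2 (-0.08) became 0.055 with log2(FPKM + 1), which moved the median slope of all genes to 0.12.

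Over all genes, DESeq2 called 228 at 3 weeks, 895 at 6 months, 1277 on average, 511 over time in the Rosa26 arm and 141 in the HIRA arm, more than 1.5 times the edgeR counts. A minimum of 1 CPM in 5 libraries called 90, 517 and 179 at 3 weeks, at 6 months and over time in the Rosa26 arm, and only the libraries of the comparison 149, 0 and 147. Leaving out 1 library moved the edgeR counts over all genes to 4 to 103 at 3 weeks (45; lowest without HIRA 3 weeks replicate 4), 49 to 395 at 6 months (299; lowest without Rosa26 6 months replicate 4), 411 to 890 on average, 1 to 213 over time in the Rosa26 arm, 5 to 31 in the HIRA arm (15) and 211 to 1383 for the slope (lowest without Rosa26 6 months replicate 3). Depth limits Exo1 and Polq most, at 1 to 16 counts per library.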
